A study of Mus musculus with 4 samples.

Results

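The genes described here mark the hepatocytes around the central vein and depend on Wnt signalling. They were Axin2, Lgr5, Rnf43, Znrf3, Tbx3, Glul, Slc1a2, Rhbg, Oat and Lect2, and every probe set carrying one of these names in the deposited annotation was taken. Of these 10 genes 9 were measured, by 16 of 45037 probe sets, and Rhbg was not analysed here. The measurements were made in whole liver of male mice aged 6 weeks on a C57BL/6 background, either WT or Tm7sf2-KO. The labels give the knockout as a mouse backcrossed to that strain and name no tissue-specific driver. There were 2 WT arrays and 2 KO arrays, and the labels do not say whether the arrays of a genotype came from separate animals, and the p-values therefore cover the array-to-array spread alone, which can be technical.

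In the liver lobule, blood flows from the portal vein to the central vein, and hepatocytes along this path carry different enzymes. Endothelial cells of the central vein release Wnt ligands and an R-spondin, which keep beta-catenin from being degraded in the neighbouring hepatocytes. Beta-catenin then enters the nucleus and, with T-cell factors (TCF/LEF), switches on a pericentral programme. That programme includes glutamine synthetase, which clears the ammonia left over by the urea cycle of the periportal cells, and a set of feedback proteins that raise or lower the Wnt signal itself.

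T-cell factors bind DNA through a short core, read here as the letters ATCAAAG on one strand or CTTTGAT on the other. The 250 bases before the annotated start were searched in the RefSeq promoters (build GRCm38.p6) of the 6 genes with an entry, which were Axin2, Rnf43 (2 starts), Glul, Slc1a2, Oat and Lect2. Of these 7 windows 2 held the core, against 3.21% of all 32817 windows, and they are shown because they belong to the gene with the largest change and to the gene with the smallest. Capitals mark the core.
Slc1a2, chr2:102706188-102706437, plus strand: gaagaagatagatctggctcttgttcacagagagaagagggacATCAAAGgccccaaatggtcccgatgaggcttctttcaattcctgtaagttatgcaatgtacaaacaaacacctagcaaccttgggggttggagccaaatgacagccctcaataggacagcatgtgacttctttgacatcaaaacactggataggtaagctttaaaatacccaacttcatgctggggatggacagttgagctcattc
Lect2, chr13:56548539-56548788, minus strand: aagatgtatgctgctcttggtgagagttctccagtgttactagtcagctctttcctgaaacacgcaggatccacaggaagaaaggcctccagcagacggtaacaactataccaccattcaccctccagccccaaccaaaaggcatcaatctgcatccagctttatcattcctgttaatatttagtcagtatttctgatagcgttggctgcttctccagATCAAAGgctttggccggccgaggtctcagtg
The core began 207 bases before the start of Slc1a2 and 32 bases before that of Lect2. A match of letters is a description of the sequence and not a binding site.

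Expression is given as the deposited log2 level, and every change is KO minus WT on that scale. Tm7sf2, read first as a check of the labels, was at 10.25 and 10.27 on the WT arrays and at 7.47 and 7.55 on the KO arrays at its brighter probe set, a change of -2.75 (SE 0.08, limma adjusted p = 1.65e-06). Its other probe set read 7.46 and 7.49 in WT and 7.50 and 7.54 in KO, a change of 0.04 (limma adjusted p = 0.878). Arrays of the same genotype correlated at 0.994 across probe sets, and arrays of different genotypes at 0.99 to 0.991. A gene was said to rise or fall when its limma p, adjusted over all 45037 probe sets, was under 0.05 and its change was at least 0.5, which is 1.41-fold. As a reference for probe sets without signal, 89 probe sets of odorant, taste and pheromone receptor genes were used, which liver does not need. The 95th percentile of their mean levels was 6.74, and 11 of the 16 probe sets lay above it.

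**Figure D1:**
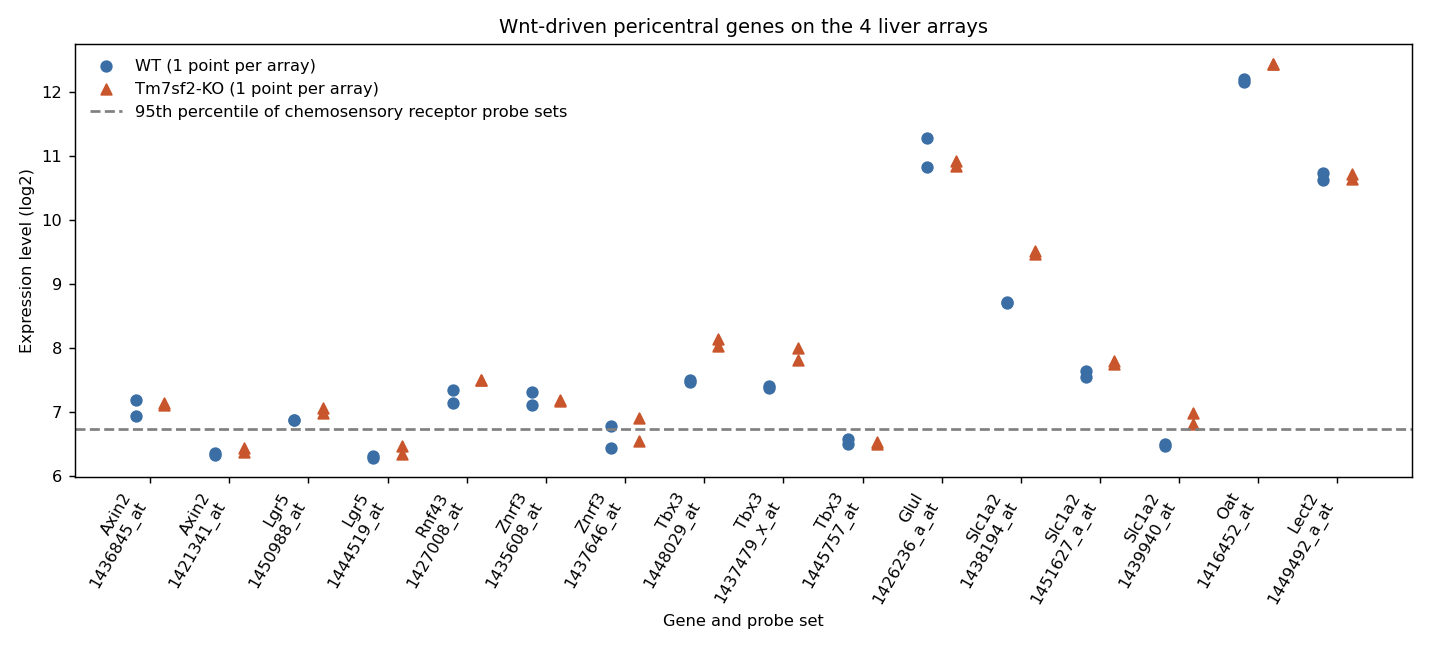
Expression level (log2, vertical axis) at each of the 16 probe sets (horizontal axis, grouped by gene) on the 2 WT arrays (circles) and the 2 KO arrays (triangles). The dashed line is the receptor background of 6.74. The KO points stand clear of the WT points at the brightest probe sets of Slc1a2 and Tbx3, while those of Glul and Lect2 overlap.

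Of the 9 genes, 2 rose in KO liver at their brightest probe set, the glutamate transporter Slc1a2 and the transcription factor Tbx3, and 0 fell. Among all 19504 named genes, 0.543% rose by this measure and 0.487% fell. Counted by probe set, 3 of 16 rose (1 of Slc1a2 and 2 of Tbx3) and 0 fell, against 0.38% and 0.326% of all probe sets. The KO arrays lay wholly above the WT arrays in 5 of the 9 genes and wholly below in 0, where 24% of named genes did the first and 19.9% the second. The median change of the 9 genes was 0.15, and that of all named genes was 0.01. Since RNA came from whole liver, more pericentral cells and more RNA per cell cannot be told apart.

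The glutamate, glutamine and ammonia genes did not move as one. Slc1a2 encodes a high-affinity glutamate transporter, best known from astrocytes, which in liver sits on the pericentral hepatocytes that make glutamine. At its brightest probe set (1438194_at) it read 8.70 and 8.72 in WT and 9.47 and 9.50 in KO. The groups were far apart compared with the gaps within them, 0.0193 in WT and 0.0370 in KO, and the rise was 0.78 (SE 0.08, 95% confidence interval of the change 0.60 to 0.95, limma adjusted p = 0.00194), or 1.71-fold. It ranked as rise number 33 of all 45037 probe sets. A second Slc1a2 probe set (1451627_a_at) read 7.55 and 7.64 in WT and 7.75 and 7.79 in KO, a change of 0.18 (95% interval 0.00 to 0.36, adjusted p = 0.381). The third (1439940_at), at 6.47 and 6.50 in WT and 6.81 and 6.97 in KO, changed by 0.41 (SE 0.09, adjusted p = 0.0631), and its mean lay under the receptor background. The KO arrays were above the WT arrays at all 3 probe sets, but not by the same amount. Tested within arrays, the first probe set changed by 0.60 more than the second (SE 0.12, limma adjusted p = 0.0432). The adjustment ran over 13914 pairs, each of a gene's brightest probe set with another of its probe sets. Of these pairs 0.381% had an adjusted p under 0.05, whatever the size of the difference. Against the third the excess was 0.37 (SE 0.12, adjusted p = 0.251).

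Markers of brain cells are given beside it because Slc1a2 is also a brain gene. Of 6 markers of astrocytes and neurons (Gfap, Aqp4, Slc1a3, Snap25, Syt1 and Tubb3), 4 lay under the receptor background, Aqp4, Slc1a3, Snap25 and Tubb3, and 0 rose or fell. Their summed level on a linear scale was 654 to 657 in WT and 643 to 703 in KO.

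Glul encodes glutamine synthetase, the classical marker of the innermost pericentral cells. Its single probe set read 10.82 and 11.27 in WT and 10.92 and 10.83 in KO. Both KO values lay between the 2 WT values, and the change was -0.17 (SE 0.13, 95% interval -0.47 to 0.12, limma adjusted p = 0.654). The WT arrays were 0.450 apart, a wider gap than at 99.5% of probe sets, so the interval was broad and left room for a fall of up to 0.47 and a rise of up to 0.12.

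Oat encodes ornithine aminotransferase, which turns ornithine towards glutamate in the same pericentral cells. It read 12.14 and 12.20 in WT and 12.44 and 12.43 in KO. The groups did not overlap, and the change of 0.26 (SE 0.08, 95% interval 0.09 to 0.44, limma adjusted p = 0.181) passed neither threshold. With an intensity trend in the variance, Oat passed the adjusted p (limma adjusted p = 0.0381) but not the fold threshold.

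Tbx3, a T-box repressor of transcription and a direct beta-catenin target in liver, was the other gene to rise. At its brightest probe set (1448029_at) the WT arrays read 7.46 and 7.50 and the KO arrays 8.02 and 8.14, a rise of 0.60 (SE 0.08, 95% interval 0.42 to 0.79, limma adjusted p = 0.00938), or 1.52-fold. The second (1437479_x_at), whose suffix marks probes that may also bind other transcripts, read 7.38 and 7.40 in WT and 7.81 and 7.99 in KO, a rise of 0.51 (SE 0.09, adjusted p = 0.0285). Both showed KO above WT without overlap. The third (1445757_at) read 6.49 and 6.58 in WT and 6.53 and 6.49 in KO, under the receptor background, and its change was -0.02 (adjusted p = 0.939). The first exceeded the third by 0.63 within arrays (SE 0.13, limma adjusted p = 0.0377). With the third under the receptor background, that difference largely repeats the rise of the first and cannot tell parts of the transcript apart. The first 2 differed by 0.09 (95% interval -0.17 to 0.35, limma adjusted p = 0.836). Which part of the transcript each probe set reads was not known here.

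**Figure D2:**
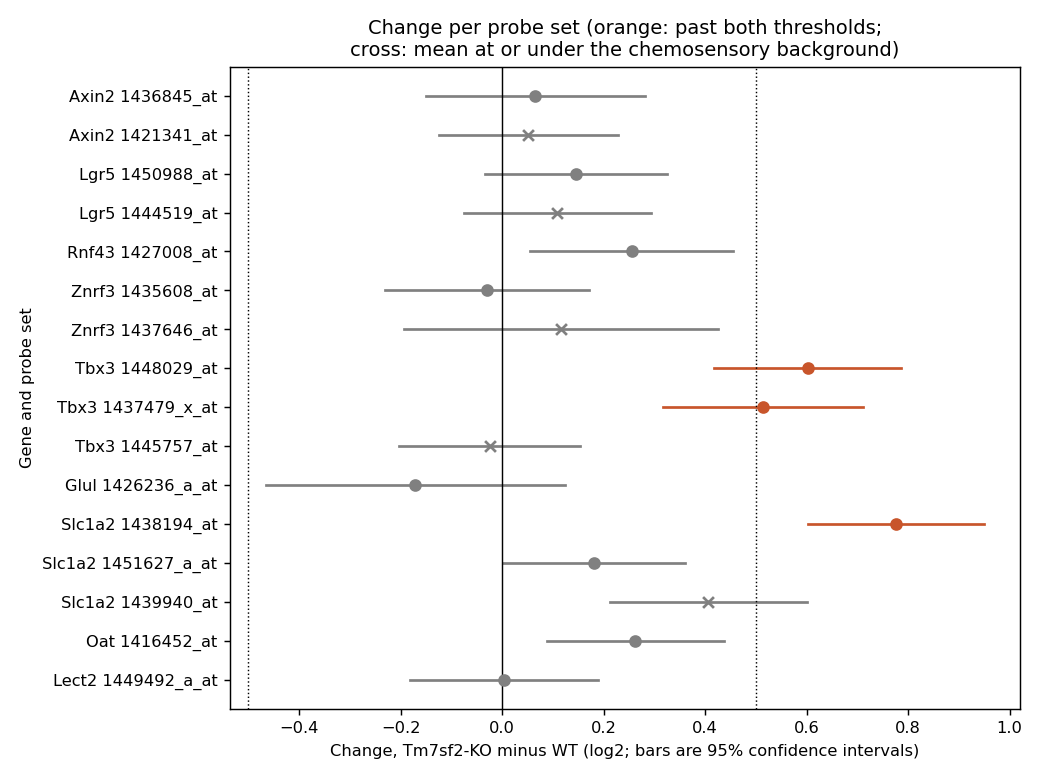
Change from WT to KO (log2, horizontal axis) at each of the 16 probe sets, with bars for the 95% confidence interval from limma's moderated variance. Dotted lines stand at a change of 0.5 in each direction. The 3 orange probe sets, 1 of Slc1a2 and 2 of Tbx3, passed both thresholds, and crosses mark the 5 probe sets whose mean was not above the receptor background.

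The 4 feedback regulators stayed under both thresholds, although 1 of them, Rnf43, reached an unadjusted limma p under 0.05. Axin2, a scaffold of the complex that degrades beta-catenin, is induced by Wnt signals in most tissues and is read as their general reporter. Its brighter probe set was at 7.18 and 6.93 in WT and 7.10 and 7.14 in KO. The KO values lay between the WT values, and the change was 0.07 (SE 0.10, 95% interval -0.15 to 0.28, limma adjusted p = 0.848). The other probe set, at 6.36 and 6.33 in WT and 6.43 and 6.37 in KO, was under the receptor background.

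Lgr5 is a receptor for R-spondins and raises the cell's response to Wnt. It read 6.87 and 6.88 in WT and 6.97 and 7.07 in KO at its brighter probe set, without overlap. The change was 0.15 (SE 0.08, 95% interval -0.03 to 0.32, limma adjusted p = 0.4997). Its level was only a little above the receptor background, and the other probe set, between 6.28 and 6.47 on the 4 arrays, was under it.

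Rnf43 and Znrf3 are related membrane ubiquitin ligases that remove Wnt receptors from the cell surface and are themselves held in check by R-spondins. Rnf43 read 7.14 and 7.33 in WT and 7.49 on both KO arrays. KO was above WT by 0.26 (SE 0.09, 95% interval 0.06 to 0.46, limma adjusted p = 0.255). Znrf3 read 7.30 and 7.10 in WT and 7.18 and 7.17 in KO, with KO inside the WT range and a change of -0.03 (95% interval -0.23 to 0.17, adjusted p = 0.931). Its other probe set ran from 6.44 to 6.90 across the arrays. There the replicates were 0.339 apart in WT and 0.356 in KO, a wider gap than at 97.9% and 98.3% of probe sets.

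Lect2, a secreted chemotactic protein made by hepatocytes under beta-catenin control, was the steadiest of the 9 genes. It read 10.72 and 10.62 in WT and 10.72 and 10.64 in KO. The change was 0.00 (SE 0.08, 95% interval -0.18 to 0.19, limma adjusted p = 0.992).

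These changes are relative to the bulk of genes, since the arrays had been brought to a common distribution. Control transcripts added for hybridization read 0.383 higher on the KO arrays. Centring each array on them moved the median change of all probe sets from 0.01 to -0.38. Slc1a2 (0.39) and Tbx3 (0.22) then still lay above WT but under the fold threshold, Glul (-0.55) fell past both thresholds, as 15.3% of all probe sets did, and Axin2 (-0.32), Lgr5 (-0.24), Rnf43 (-0.13), Oat (-0.12) and Lect2 (-0.38) changed sign. Against that shift the order of the genes was the same by construction. The excess of 3' over 5' control signal, which grows as RNA is degraded, averaged 0.960 in WT and 1.14 in KO for Actb, 0.0857 and 0.21 for Gapdh, and 2.79 and 3.12 for Pcx. Its part in the rises of Slc1a2 and Tbx3 was not tested.

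With any 1 array left out, limma called 0 of 45037 probe sets, so the rises of Slc1a2 and Tbx3 lost their calls each time. Between 3326 and 4217 probe sets then had an unadjusted p under 0.05, among them 5 to 6 of the 16 probe sets described here. With all arrays 5872 of 45037 probe sets (13%) did, among them 7 of the 16. The size of the change depended little on any array, running from 0.76 to 0.79 for Slc1a2 and from 0.54 to 0.66 for Tbx3. For Rnf43 it was 0.16 without WT replicate 1 and 0.35 without WT replicate 2. For Glul it ran from -0.40 without WT replicate 1 to 0.05 without WT replicate 2. When the probe sets of each gene were averaged, Slc1a2 (0.45, adjusted p = 0.0309) and Tbx3 (0.36, adjusted p = 0.0653) were under the fold threshold.

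**Figure D3:**
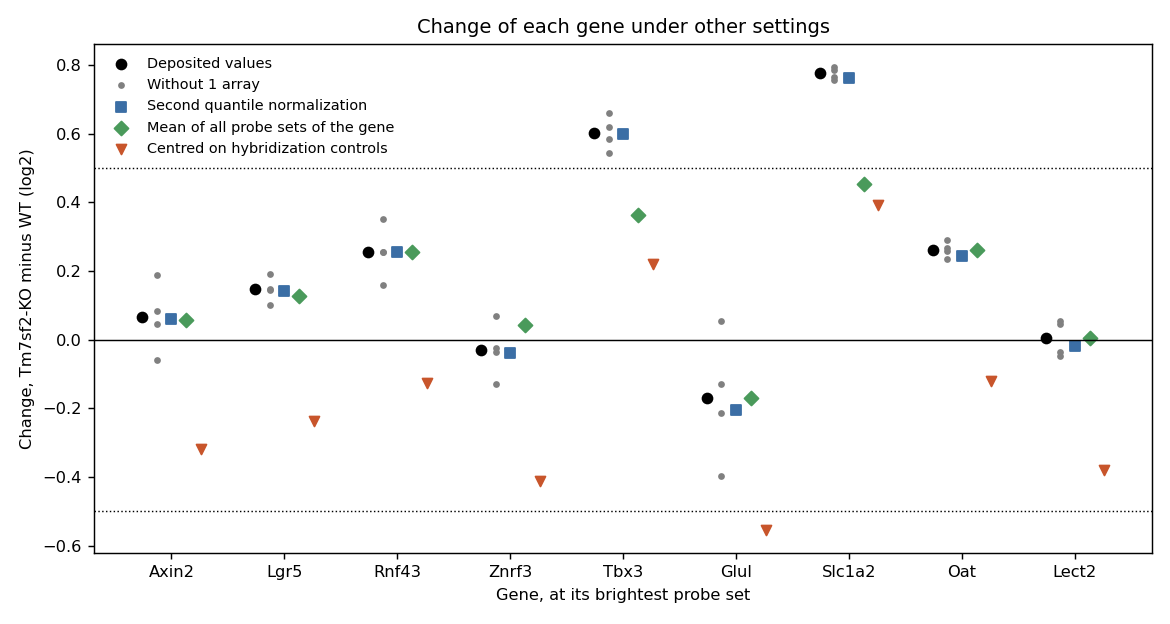
Change from WT to KO (log2, vertical axis) of each gene at its brightest probe set (horizontal axis) with the deposited values (black circles) and under other settings (grey dots leave out 1 array each). Slc1a2 and Tbx3 stayed above 0 in every setting shown, whereas centring on hybridization controls (orange triangles) put the other 7 genes below 0.

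Of 69 other genes of the Wnt pathway, 43 lay above the receptor background. In limma 0 of the 69 rose and 0 fell, where 0.543% of named genes rose and 0.487% fell. With an intensity trend in the variance the count was also 0. An unadjusted p under 0.05 was reached by 7 of the 69 (10.1%), against 15.2% of all named genes. The median change of the 69 was 0.01. Cyclin D1 (Ccnd1), a cell cycle driver counted among the Wnt targets, passed the adjusted p but not the fold threshold, as 1.75% of named genes passed the adjusted p in either direction. It read 8.71 and 8.77 in WT and 8.38 and 8.18 in KO, without overlap (change -0.46, SE 0.09, limma adjusted p = 0.0493). Its 2 other probe sets read -0.39 (adjusted p = 0.0503) and -0.17 (adjusted p = 0.529). The next target by p was the tight junction gene Cldn2 (-0.28, adjusted p = 0.219).

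Transcripts of the pathway were read from its ligands to its nuclear partners. Protein levels and activity were not measured. Of 15 ligands, R-spondins and export genes 6 lay above the receptor background. Wnt2, a ligand of the central vein and sinusoid endothelium, read 7.07 and 7.10 in WT and 7.39 and 7.28 in KO (change 0.25, SE 0.08, limma adjusted p = 0.222), and the export protein Wls changed by 0.20 (adjusted p = 0.487) under the receptor background. Among 15 receptors the largest differences by p were those of Fzd7 (-0.28, adjusted p = 0.169) and the co-receptor Lrp6 (-0.20, adjusted p = 0.311). In the group of 12 genes that degrade beta-catenin or relay the signal to that step, the scaffold Axin1 (0.24, adjusted p = 0.21) and Dvl1 (0.15, adjusted p = 0.483) came first. Among 9 genes for beta-catenin and its nuclear partners, each at its brightest probe set, 0 had an unadjusted limma p under 0.05, where 15.2% of named genes did. Bcl9l (-0.14, adjusted p = 0.587) and Tcf7l1 (-0.11, adjusted p = 0.671) came first. Ctnnb1, the gene of beta-catenin, changed by -0.11 (adjusted p = 0.678). From limma on these arrays the paper lists Ctnnb1 among regulators with an adjusted p under 0.05, without a direction. That list also holds Tbx3, Ccnd1 and Ahr, and it gives Tbx3 as a target of Ctnnb1 that changed expression without repositioning. Any other Ctnnb1 probe set is not reported here. Of 11 secreted antagonists and Dickkopf receptors, 5 lay above the receptor background. Kremen1 (-0.24, adjusted p = 0.29) and Dkk3 (0.10, adjusted p = 0.662, under that background) had the smallest p.

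Genes of the 2 ends of the lobule were set beside the Wnt-driven ones. Of 24 other pericentral genes 3 rose and 1 fell, where 0.543% of named genes rose and 0.487% fell. The median change was 0.04. An unadjusted limma p under 0.05 was reached by 12 of the 24 (50%), against 15.2% of named genes. All 24 lay above the receptor background, as only 11869 of the 19504 named genes did, so the 2 shares are from unlike sets. In a fit of probe sets above the median level the share was 19.3%, against 13% of all probe sets. With the arrays centred on hybridization controls, where 15.3% of all probe sets were called lower and 0.0555% higher, 0 of the 24 rose and 4 fell. The rises with the deposited values were those of the P450 Cyp2c54 (0.64, SE 0.09, limma adjusted p = 0.0093), of Cyp7a1, which opens the classical route from cholesterol to bile acids (0.50, SE 0.08, adjusted p = 0.02), and of Ahr, the receptor for dioxin-like compounds (0.52, SE 0.09, adjusted p = 0.0335). A second Cyp7a1 probe set changed by 0.29 (adjusted p = 0.133), and a second Ahr probe set by 0.00 (adjusted p = 0.994). The fall was that of another P450, Cyp2c37, from 10.28 and 10.24 in WT to 7.89 and 7.61 in KO (change -2.51, SE 0.10, adjusted p = 9.76e-06). Of this P450 family, Cyp2c54 thus rose and Cyp2c37 fell. In the same list Cyp2c29 (0.10, limma adjusted p = 0.643) and Cyp2c50 (-0.20, adjusted p = 0.378) passed neither threshold. Probes against closely related Cyp2c transcripts may bind more than 1 of them.

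Of 21 periportal genes 1 rose and 0 fell, beside the same shares of 0.543% and 0.487% of named genes. The median change was 0.05. An unadjusted limma p under 0.05 was reached by 11 of the 21 (52.4%), against 15.2% of named genes. All 21 also lay above the receptor background, unlike the named genes as a whole. The rise was that of Pigr, the receptor that carries IgA into bile (0.53, SE 0.08, limma adjusted p = 0.0131, with 0.37 and adjusted p = 0.0633 at its other probe set). Hal, the first enzyme of histidine breakdown, passed the adjusted p alone (0.47, SE 0.08, adjusted p = 0.0259). When the probe sets of each gene were averaged, 2 of the 24 pericentral and 0 of the 21 periportal genes were called. No test compared one zone with the other.

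**Figure D4:**
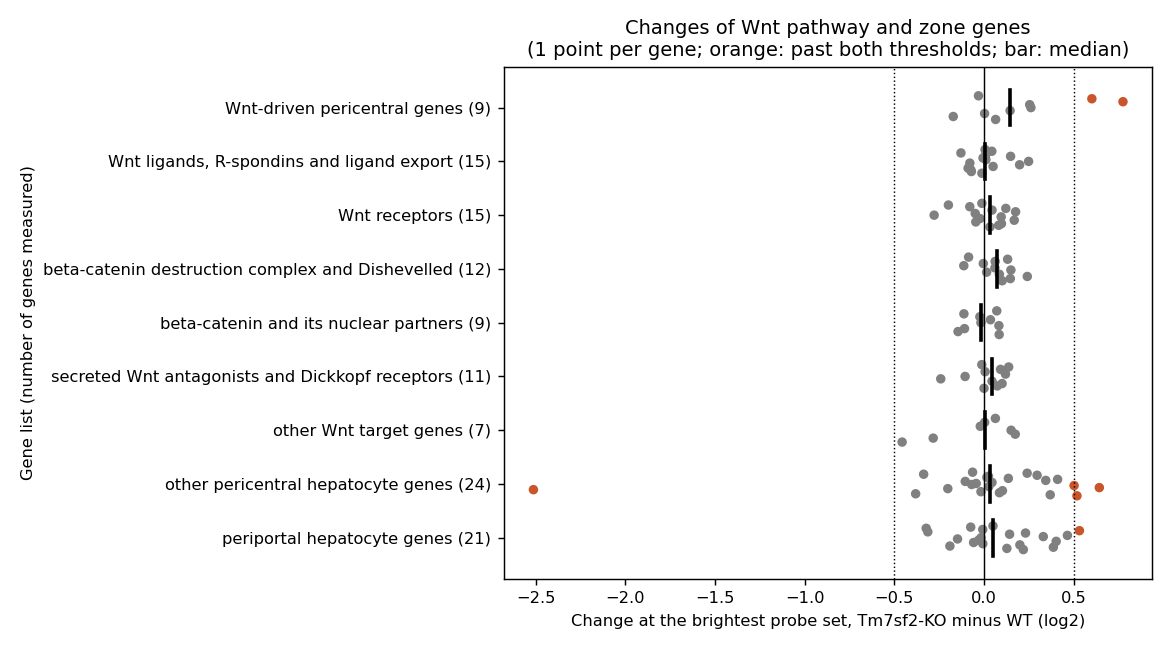
Change from WT to KO (log2, horizontal axis) of each gene at its brightest probe set, 1 point per gene, by list (vertical axis, with the number measured). Black bars are medians, dotted lines stand at 0.5 in each direction, and orange points passed both thresholds: 2 of the 9 Wnt-driven pericentral genes, 0 of the 6 Wnt pathway lists, 4 other pericentral genes and 1 periportal gene.

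Markers of the cell types of liver were read on the same arrays. All 7 hepatocyte markers measured lay above the receptor background and 0 rose or fell, with a summed linear level of 110261 to 113915 in WT and 109409 to 111461 in KO. The 6 markers of central vein endothelium, the source of the Wnt signal, also had means above it, with 0 called. Apart from Fabp4 at 8.25, these means ran only from 6.76 (Wnt9b) to 7.21 (Wnt2), beside the background of 6.74. The 6 summed to 907 to 962 in WT and 896 to 977 in KO, and a sum of such weak signals says little about these cells. Markers of liver endothelium (10 genes) and stellate cells (10 genes) gave 0 calls, with sums that overlapped between the genotypes. Beside 24% of named genes wholly above WT and 19.9% wholly below, the sums of 5 other lists did not overlap. They were higher in KO for cholangiocytes (1032 to 1088 in WT and 1124 to 1139 in KO, 0 of 6 called, with Krt7, Epcam and Cftr under the receptor background) and lymphoid cells (966 to 1011 and 1019 to 1026, 0 of 8 called). They were lower in KO for Kupffer cells (4307 to 4359 and 4223 to 4246, 0 of 8 called), erythroid cells (1074 to 1105 and 1002 to 1030, 0 of 3 called) and neutrophils (545 to 551 and 457 to 464). Of the 4 neutrophil markers measured 1, S100a8, fell by 0.67 (SE 0.08, limma adjusted p = 0.00449). Whether any of these 5 differences has a part in the changes of Slc1a2 and Tbx3 was not tested.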

How the data were processed

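Liver RNA was hybridized to 4 one-colour Affymetrix MOE430 v2 arrays. The log2 values deposited by the authors, 1 per probe set and array, had been quantile-normalized. The tools affy and limma are credited in the submitters' processing notes, and the sources used here do not state background correction or probe summarisation. The authors' deposited table also holds their own log2 ratio and adjusted p-value, which were not used; only its gene names and chromosomes were taken. After leaving out 64 control probe sets, KO and WT were compared with limma 3.58.1 (R 4.3.3; lmFit, eBayes, two-sided, all arrays, no covariate) with Benjamini-Hochberg adjustment over 45037 probe sets. The residual degrees of freedom were 2. The procedure was tested on simulated data. With 2 arrays per group the smallest two-sided exact permutation p is 0.333, and none was run. The number of arrays limits the precision. Genes in lists stood at their brightest probe set. Probe sets of one gene were compared by the same test on their within-array difference. The genes and lists were chosen with earlier results of these data known. The text names all members and, per list, up to 4 called genes or the 2 of smallest p. Ctnnb1, Hal, S100a8, Cyp2c29, Cyp2c50, Wnt9b and Fabp4 were named after their values were seen.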

Additional observations from a re-analysis of the deposited data

How the results depend on the processing

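Leaving out 1 array gave 0 calls in each count (probe sets, genes at their brightest probe set, Wnt pathway, other pericentral and periportal genes) and 0 of 7 probe set pairs that differ. Those fits had 1 residual degree of freedom and take the lone array to vary like the other group. The changes then ran from -0.058 to 0.19 for Axin2, -0.13 to 0.069 for Znrf3, -0.40 to 0.054 for Glul and -0.048 to 0.055 for Lect2. Centring on hybridization controls left 1 of 16 probe sets and 1 of 9 genes called, Glul, lower in KO, with 7 of 69 Wnt pathway, 4 of 24 other pericentral and 4 of 21 periportal genes lower and 0 higher, beside 15.3% of all probe sets called lower. It reversed Axin2 (-0.32), Lgr5 (-0.24), Rnf43 (-0.13), Oat (-0.12) and Lect2 (-0.38). Averaging the probe sets of each gene left 0 of 9 genes, 2 other pericentral genes and 0 periportal genes called and reversed Znrf3 (0.043). A second quantile normalization reversed Lect2 (-0.020). The cause was not tested. The intensity trend, the filter on dim probe sets and the second normalization otherwise kept each count within 1.5 times. Same-numbered arrays did not deviate together (correlation of the replicate differences -0.04), so the numbers were not taken as pairs. With the replicate number as a block 305 probe sets were called against 318, and the 3 probe sets of Slc1a2 and Tbx3 were called, while other pericentral calls numbered 3 in place of 4. An array gives no detection call here, so weak genes such as Lgr5 are limited by the receptor background.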
